A study of Mus musculus with 5 samples.

Results

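Narrow H3K4me3 peaks at promoters that were called in both wild-type and Cxxc1-deficient thymocytes are described here. A peak is a run of listed 200-bp windows with gaps of at most 2 missing windows. Of 14237 WT peaks, 5890 were autosomal, under 3000 bp wide, at most 10 RPM strong and within 1 kb of a protein-coding transcription start site (TSS). RPM is the number of sequenced tags per M mapped tags, here summed over the windows of a peak. Of these 5890 narrow promoter peaks, 607 (10.3%) shared at least 1 bp with a peak of Cxxc1-deficient cells and are the members described below. The remaining 5283 had no Cxxc1-deficient peak on them, and 417 narrow promoter peaks of Cxxc1-deficient cells had no WT peak. Among all WT peaks, in promoters or not, 8.17% overlapped a peak of the other genotype. Members were thus selected on the H3K4me3 calls of both libraries, by width, strength and overlap, and the levels of both libraries at the members are given as a description without a test.

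The study profiled Cxxc1 and H3K4me3 by chromatin immunoprecipitation and sequencing (ChIP-seq) in DP thymocytes, the CD4+CD8+ stage of T-cell development in the thymus. WT mice were Cxxc1 fl/fl, and Cxxc1-deficient mice were Cxxc1 fl/fl hCD2-Cre, so that both carried the floxed alleles. The hCD2-Cre transgene acts from the early stages of thymocyte development and also in other immune cells. Experiments used mice 3 to 4 weeks old unless stated otherwise, and whether animals were pooled for a library was not given. The genotype label of the Cxxc1-deficient libraries reads Cxxc1+/-, a heterozygote, while their titles read KO, and the titles were followed. Each H3K4me3 list came from 1 library, so no difference between genotypes has a replicate check. All intervals below are 95% intervals that cover counting error only.

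H3K4me3 is a histone mark placed around the start sites of active and poised genes. Cxxc1 (CXXC finger protein 1) binds unmethylated CpG through its zinc finger and is a subunit of the Setd1 complexes, which methylate lysine 4 of histone H3. CpG islands, stretches of DNA rich in CpG and usually free of methylation, make up many mammalian promoters, and a pair of divergent genes can share one.

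The promoters of 5 members differ widely in base composition. They are Jund, the strongest in WT, Pxmp4 and Ugt1a1, which had the most tags in Cxxc1-deficient cells, and the T-cell genes Cd8a and Cd3e. They were chosen after their values were seen. Each is printed on the strand of its gene from 250 bases before to 50 bases after the TSS, with every CpG in capitals, as read from the mm9 assembly. The positions are chr8:73222607-73222906 on the plus strand for Jund, chr2:154429375-154429674 on the minus strand for Pxmp4, chr1:90108284-90108583 on the plus strand for Ugt1a1, chr6:71323171-71323470 on the plus strand for Cd8a and chr9:44817624-44817923 on the minus strand for Cd3e.
Jund: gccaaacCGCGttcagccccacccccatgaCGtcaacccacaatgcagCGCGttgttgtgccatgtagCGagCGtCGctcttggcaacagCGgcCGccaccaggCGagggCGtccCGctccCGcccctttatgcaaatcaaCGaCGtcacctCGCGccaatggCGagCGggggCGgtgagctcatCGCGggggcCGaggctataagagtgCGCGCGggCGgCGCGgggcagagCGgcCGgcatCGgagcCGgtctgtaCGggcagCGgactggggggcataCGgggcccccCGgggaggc
Pxmp4: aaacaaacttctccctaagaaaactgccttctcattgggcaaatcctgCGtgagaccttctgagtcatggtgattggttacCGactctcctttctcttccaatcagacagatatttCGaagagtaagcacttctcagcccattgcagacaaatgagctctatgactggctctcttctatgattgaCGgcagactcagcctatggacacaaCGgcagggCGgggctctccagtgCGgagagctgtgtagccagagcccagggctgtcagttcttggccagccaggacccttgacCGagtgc
Ugt1a1: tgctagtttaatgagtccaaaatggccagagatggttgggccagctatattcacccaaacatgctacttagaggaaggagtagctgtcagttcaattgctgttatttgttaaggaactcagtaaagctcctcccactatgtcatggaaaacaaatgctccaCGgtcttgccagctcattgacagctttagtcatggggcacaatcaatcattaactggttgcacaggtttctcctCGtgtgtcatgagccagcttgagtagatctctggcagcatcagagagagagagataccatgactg
Cd8a: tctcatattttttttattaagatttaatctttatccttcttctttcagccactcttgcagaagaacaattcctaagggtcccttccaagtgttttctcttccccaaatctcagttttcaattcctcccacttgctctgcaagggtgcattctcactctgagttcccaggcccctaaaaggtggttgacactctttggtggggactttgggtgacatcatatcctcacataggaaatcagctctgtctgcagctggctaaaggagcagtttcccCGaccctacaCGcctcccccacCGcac
Cd3e: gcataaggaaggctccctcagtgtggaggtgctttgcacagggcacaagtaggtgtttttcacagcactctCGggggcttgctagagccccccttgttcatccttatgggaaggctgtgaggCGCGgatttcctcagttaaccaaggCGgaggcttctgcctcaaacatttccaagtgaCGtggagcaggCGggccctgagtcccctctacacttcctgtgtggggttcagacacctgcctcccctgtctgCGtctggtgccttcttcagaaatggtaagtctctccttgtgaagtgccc
The Jund promoter holds 38 CpGs in 300 bases. The Pxmp4 promoter holds 8, that of Cd3e 7, that of Cd8a 3 and that of Ugt1a1 2. The observed to expected CpG ratio, which is 1 when CpG is as frequent as the C and G content predicts, was 1.016 for Jund and 0.13 for Ugt1a1. Marking in both genotypes was thus listed at CpG-rich and at CpG-poor promoters.

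The second set of sequences is the DNA between divergent start sites, since head-to-head gene pairs were more frequent among the members than among the other narrow peaks. Shown are the 3 pairs with the highest Cxxc1-deficient RPM among those whose start sites lay 60 to 300 bp apart, a choice also made after the values were seen. Each runs on the plus strand from the start of the left gene, which reads leftward, to the start of the right gene, with CpGs in capitals. They are Gm9967/Ypel3 at chr7:133920332-133920469, Ranbp1/Trmt2a at chr16:18248825-18248976 and Cdc26/Prpf4 at chr4:62069676-62069831.
Gm9967/Ypel3: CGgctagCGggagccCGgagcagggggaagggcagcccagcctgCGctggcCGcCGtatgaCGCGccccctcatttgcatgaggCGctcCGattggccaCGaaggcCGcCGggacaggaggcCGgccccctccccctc
Ranbp1/Trmt2a: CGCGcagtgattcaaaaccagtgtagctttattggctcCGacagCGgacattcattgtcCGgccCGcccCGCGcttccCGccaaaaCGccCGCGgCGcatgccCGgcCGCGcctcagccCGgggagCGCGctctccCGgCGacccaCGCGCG
Cdc26/Prpf4: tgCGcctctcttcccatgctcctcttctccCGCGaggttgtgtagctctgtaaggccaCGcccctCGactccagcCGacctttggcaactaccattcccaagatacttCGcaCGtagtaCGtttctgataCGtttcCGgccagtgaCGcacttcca
These spacers hold 14, 24 and 12 CpGs in 138, 152 and 156 bases. Their observed to expected ratios were 0.729, 1.316 and 1.059.

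The depth was the same in both H3K4me3 libraries to within the precision of the files. The deposited values placed each between 9.41 and 9.47 M tags, and 1 tag was worth 0.1056 to 0.1062 RPM in both. Promoters of 7 of 14 DP thymocyte marker genes carried a WT peak and those of 3 carried a Cxxc1-deficient peak. Of the marker genes of B cells, myeloid cells, erythroid cells, thymic epithelium and stroma or vessels, 1 or 2 of the 4 to 6 in each list carried a WT peak, and 0 or 1 a Cxxc1-deficient peak. In a bulk ChIP, fewer cells with the mark and less mark per cell cannot be told apart.

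At most members, H3K4me3 tags were fewer in Cxxc1-deficient cells, and they spanned a narrower range there. Tags at equal depth are a share of each library, so they cannot show a change in the total amount of the mark. The paper reports lower total H3K4me3 in Cxxc1-deficient DP thymocytes by an immunoassay (ELISA). The median over members was 26.0 tags (2.60 RPM) for WT and 21.0 tags (2.10 RPM) for Cxxc1-deficient cells. In WT the middle 80% of members ran from 17.0 to 41.0 tags, and in Cxxc1-deficient cells from 16.0 to 30.4 tags. The lowest member had 10 tags in either list, which is also the lowest of all peaks in each list, and places below that have no value. The highest WT member was Jund with 59 tags, and the highest in Cxxc1-deficient cells was Ugt1a1 with 205.

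The ratio of Cxxc1-deficient to WT tags, taken over the whole peak in each library, had a median of 0.800 (interval 0.774 to 0.833). There were fewer tags in Cxxc1-deficient cells at 409 members (67.4%), equal numbers at 33 and more at 165. Among all 1163 shared peaks of the series, which include the members, the share with fewer tags was 68.8%. Of the autosomal shared peaks of at most 10 RPM, it was 98.3% at promoter peaks of 3000 bp and above. Away from promoters it was 62.0%. The exact interval of the ratio lay below 1 at 97 members, 16.0% of them beside 23.8% of all shared peaks. In the same 2 groups of other shared peaks these shares were 81.5% and 16.6%. It lay above 1 at 9 members, 1.48% beside 2.32%. At the other 501 members the depth could not separate the ratio from 1.

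**Figure D1:**
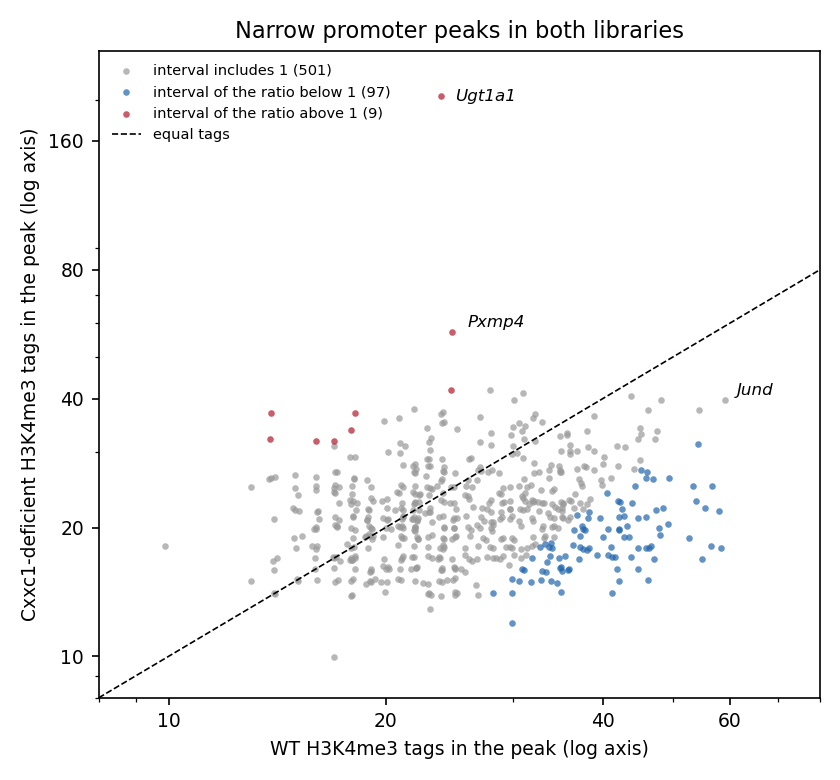
H3K4me3 tags per peak at the 607 members, WT on the horizontal and Cxxc1-deficient on the vertical axis, both logarithmic. Each point is 1 peak, shifted by a small random amount so that equal counts do not hide each other, and colours give the exact 95% interval of the ratio. The cloud is wide along the WT axis and narrow along the other, with Ugt1a1 at 205 tags far above the rest.

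The tags of the 2 libraries were only weakly related over the members. Spearman's rho was 0.152 and Pearson's r was 0.0861 over the 607 peaks, and r was 0.160 without Ugt1a1. These are descriptions across peaks, which are not replicates and share their libraries.

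The members were next split by WT strength, and the values below describe the split and support nothing. Every member had also to be called in the Cxxc1-deficient library, where the 5th percentile of all peaks was 15 tags and the median 20 tags, so its level there has a floor set by the peak calling. The 121 members under 2 RPM in WT had a median of 2.0 RPM in Cxxc1-deficient cells. The 249 members at 2 to under 3 RPM had 2.10 RPM. The 163 members at 3 to under 4 RPM and the 74 members at 4 RPM and above both had 2.20 RPM. Narrow promoter peaks listed in Cxxc1-deficient cells alone, which passed the same call in the same library, had a median of 2.0 RPM. The median ratio went from 1.17 in the weakest class through 0.885 and 0.647 to 0.483 in the strongest. Since WT tags are the denominator of the ratio, a fall over these classes is favoured by the split itself. Any part of the floor in it was not tested. All 74 members of the strongest class had fewer tags in Cxxc1-deficient cells, and 24 of the 121 in the weakest did.

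Peaks that were stronger in WT were more often marked in both. The share of narrow WT promoter peaks that were members was 8.08% (6.80 to 9.57) under 2 RPM, 9.26% (8.22 to 10.4) at 2 to under 3 RPM, 12.5% (10.8 to 14.4) at 3 to under 4 RPM and 18.5% (15 to 22.7) at 4 RPM and above. Width mattered less, with 9.66% of peaks under 1200 bp and 11.7% of those of 2000 to 2800 bp marked in both. On single autosomes the share ranged from 5.11% on chromosome 14, where 9 of 176 were members, to 14.1% on chromosome 3.

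**Figure D2:**
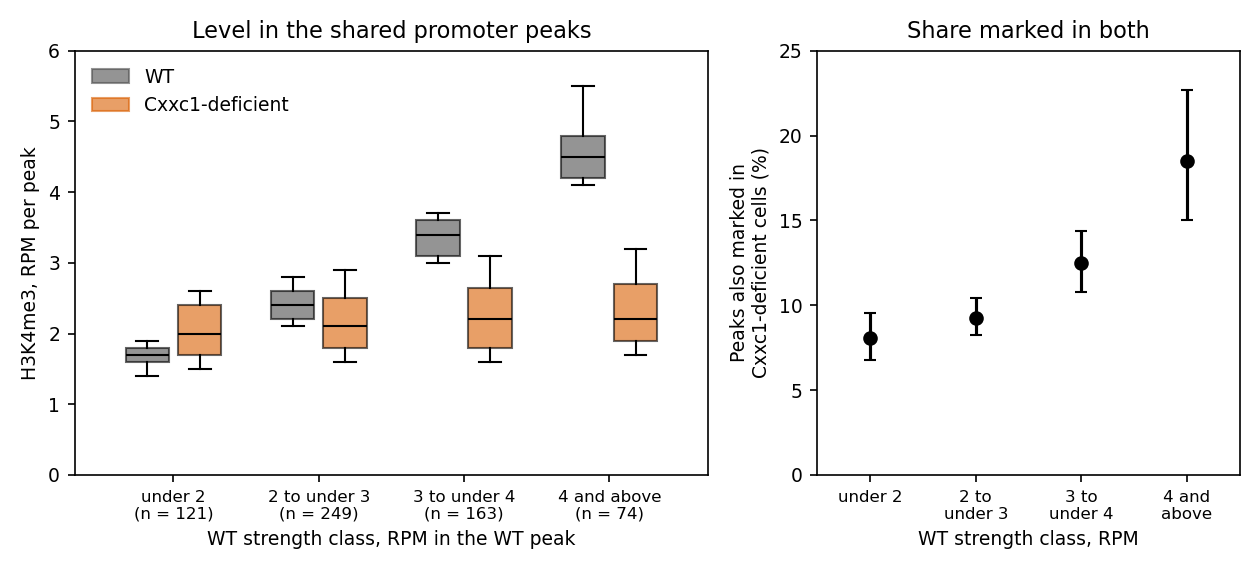
Left, RPM per peak at the members in 4 classes of WT strength, with boxes for quartiles, lines for medians and whiskers for the 10th and 90th percentiles, WT in grey and Cxxc1-deficient in orange. Right, the percentage of narrow WT promoter peaks also marked in Cxxc1-deficient cells, with 95% Wilson intervals. The orange medians stay between 2.0 and 2.20 RPM, and the percentage goes from 8.08 to 18.5.

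The following 5 members were picked for high WT values, so that a lower value in the other library follows in part from the choice. Jund, a subunit of the AP-1 transcription factor, had 59 tags in WT and 39 in Cxxc1-deficient cells, which is 6.0 and 3.9 RPM and a ratio of 0.661 (0.429 to 1.01). Hspa2, a chaperone of the Hsp70 family, had 58 and 22. Trib2, a pseudokinase, had 57 and 18. Tle3, a transcriptional co-repressor of the Groucho family, had 56 and 25. B3gnt2, which extends poly-N-acetyllactosamine chains on glycoproteins, had 55 and 23. Jund was the one of these 5 whose interval included 1.

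Among the lowest ratios were those at Rbm38, Trib2, Scaf4 and Uhrf1. Rbm38, which encodes an RNA-binding protein, had 55 tags in WT and 17 in Cxxc1-deficient cells, a ratio of 0.309 (0.168 to 0.541). Scaf4, whose product binds the tail of RNA polymerase II, had 46 and 15 tags. Uhrf1, which encodes a reader of hemimethylated CpG that works with the maintenance DNA methyltransferase, had 41 and 14 tags, a ratio of 0.341 (0.172 to 0.639).

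These ratios went together with the width of the peaks. At Rbm38 the peaks were 2800 and 800 bp, with 12 WT tags and 13 Cxxc1-deficient tags in the 3 windows listed in both. At Uhrf1 they were 2800 and 800 bp, with 7 and 14 tags in the 3 shared windows. At Trib2, with peaks of 2800 and 1200 bp, the shared windows held 20 and 15 tags, and at Scaf4 14 and 12. Of the 97 members with an interval below 1, 89 had a narrower peak in Cxxc1-deficient cells, beside 262 of all 607 members. In the windows listed in both, 67 of the 97 had fewer Cxxc1-deficient tags, beside 391 of all 607. The ratio sums tags over each whole peak, so a link with width is in part built in.

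The same held for the members with more tags in Cxxc1-deficient cells. All 9 with an interval above 1 had a wider peak there than in WT, beside 290 of all 607 members. In the windows listed in both libraries, 3 of the 9 had more tags in Cxxc1-deficient cells, 1 had equal tags and 5 had fewer. Over all members these counts were 144, 72 and 391. Ugt1a1, a bilirubin-conjugating enzyme whose gene is one of a family of alternative first exons, had 24 tags over 1000 bp in WT and 205 tags over 10800 bp in Cxxc1-deficient cells, a ratio of 8.54 (5.58 to 13.6). In its 5 shared windows it had 24 tags in WT and 16 in Cxxc1-deficient cells, and the highest Cxxc1-deficient window lay 4767 bp downstream of the TSS. Pxmp4, which encodes a peroxisomal membrane protein, had 25 tags in WT and 57 in Cxxc1-deficient cells, a ratio of 2.28 (1.40 to 3.81), over 1800 and 3400 bp. Its 4 shared windows held 13 and 14 tags. Zfp341, a zinc finger gene whose WT peak lay 8800 bp from that of Pxmp4, had 18 and 34 tags.

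Sin3a, the scaffold of a histone deacetylase co-repressor complex, had a pair of member peaks that met a single Cxxc1-deficient peak. That peak held 37 tags over 2600 bp, and the WT peaks held 24 and 14 tags. The ratio of 2.64 (1.40 to 5.29) at the weaker one thus sets 1 of 2 WT peaks against a peak that spans both. In all, 6 members shared a Cxxc1-deficient peak with another member. Cdc26, a subunit of the anaphase-promoting complex, had 18 tags over 800 bp in WT and 37 over 2200 bp in Cxxc1-deficient cells, a ratio of 2.06 (1.14 to 3.84), and its 4 shared windows held 18 and 14. Gpaa1, which attaches GPI anchors, had 14 and 32 tags. The other 3 with an interval above 1 were Hic1 with 16 and 32 tags, Tm6sf1 with 17 and 32, and Ypel3 with 25 and 42.

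Per kb of peak, the members with higher, lower and undecided ratios were close to each other. The median member had 17.9 tags per kb in WT and 13.9 in Cxxc1-deficient cells. Members with an interval above 1 had 20 and 13.3, those with an interval below 1 had 18.5 and 14.3, and those whose interval included 1 had 17.5 and 13.8. Widths of the 2 lists had the same median of 1600 bp, with 290 members wider in Cxxc1-deficient cells, 262 narrower and 55 equal.

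Peaks of the 2 genotypes overlapped at each member but matched only in part. The rule placed only the WT peak at a promoter, and the Cxxc1-deficient peak could lie outside it. At Rbm38 the Cxxc1-deficient peak ended at position 172844200 of chromosome 2, over 1 kb upstream of the TSS at 172845999. The Cxxc1-deficient peak covered a median of 71.4% of the WT width, all of it at 155 members and under 25% at 27. Of 4178 WT windows and 3865 Cxxc1-deficient windows at the members, 2213 were listed in both. These averaged 0.421 RPM for the WT library and 0.357 RPM for the Cxxc1-deficient one. WT was higher in 50.4% of them, equal in 21.3% and lower in 28.3%. The highest window was the same in both libraries at 12.9% of members, and the median distance between the highest windows was 400 bp. With medians of 0.60 and 0.50 RPM in the highest window, which is 5 or 6 tags, the position of a summit is loosely fixed.

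In both genotypes the listed windows were most frequent around the TSS. The TSS of a member is the one nearest the midpoint of its WT peak. Width and distance to a TSS were limited for the WT peak alone. Closer centring in WT, and more listing farther out in Cxxc1-deficient cells, are thus favoured by the choice. The highest window lay a median of 32 bp downstream of the TSS in WT (-10 to 68). In Cxxc1-deficient cells it lay 22 bp downstream (-30 to 86), and both intervals include the TSS. Among the 494 members with a single gene, the 200 bp downstream of the TSS were listed in 84.8% of WT peaks and in 65.4% of Cxxc1-deficient peaks. From 800 to 1000 bp upstream the order was the other way, with 22.9% in WT and 30.2% in Cxxc1-deficient cells. From 1200 to 1400 bp downstream the shares were 15% and 20.2%. Where a window was listed near the TSS, it averaged 0.448 RPM for WT and 0.359 RPM without Cxxc1. The highest window was within 500 bp of the TSS at 66.1% of members in WT (62.2 to 69.7) and at 51.2% in Cxxc1-deficient cells (47.3 to 55.2).

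**Figure D3:**
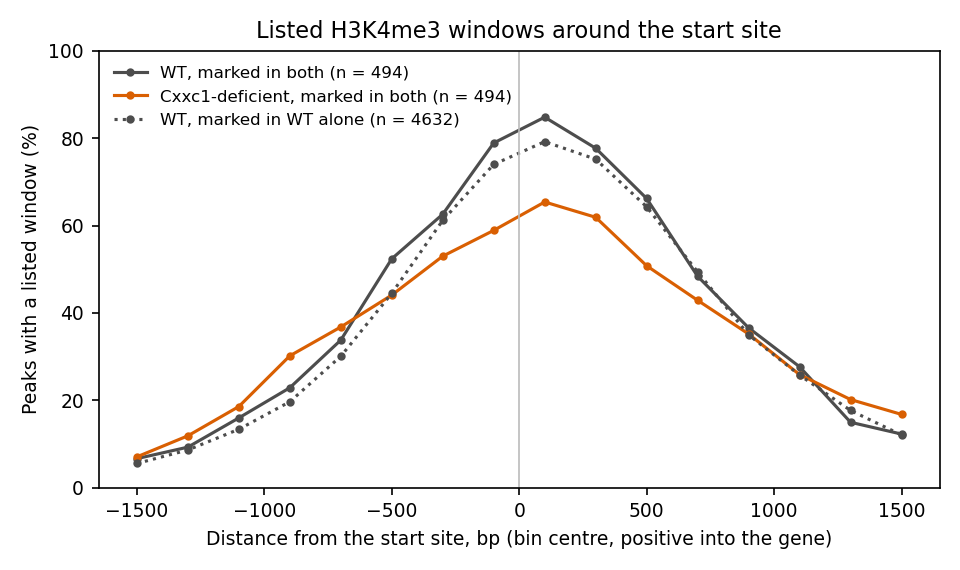
Percentage of peaks with a listed 200-bp window at each distance from the TSS, for peaks at a single gene. The TSS is the one nearest the midpoint of the WT peak, which favours closer centring in WT. Lines are WT (grey) and Cxxc1-deficient (orange) libraries at 494 members, and WT at 4632 narrow promoter peaks without a Cxxc1-deficient peak (dotted). The orange line is lower at the TSS, 65.4% beside 84.8% at 0 to 200 bp downstream, and higher at 800 to 1000 bp upstream.

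Base composition and gene arrangement were not used to choose the members, but both went with WT strength, as membership did. Among the other narrow WT promoter peaks the share at a CpG island went from 79.1% in the weakest class to 94.8% in the strongest, and the share at a head-to-head gene pair from 5.95% to 14.8%. A CpG island (here a stretch of 500 bp or more whose GC content reached 55% and whose CpG ratio reached 0.65) overlapped 548 of the 607 members, 90.3% (87.7 to 92.4). It overlapped 85.8% (84.8 to 86.7) of the other narrow WT promoter peaks, 70.0% of the promoter peaks listed in Cxxc1-deficient cells alone and 56.0% of the promoters of all 21410 autosomal genes. The difference from the other WT peaks ran in the same direction in each of the 4 classes of WT strength, with 86.0% against 79.1% in the weakest and 97.3% against 94.8% in the strongest. Within each class the intervals of the 2 groups overlapped. The median observed to expected CpG ratio was 0.809 (0.781 to 0.833) at members and 0.792 (0.785 to 0.800) at the other WT peaks, which overlap, and 0.713 at the peaks listed in Cxxc1-deficient cells alone.

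Members outside a CpG island numbered 59 and included Cd8a, Cd3e, Ugt1a1 and Tm6sf1. Their medians were 2.40 RPM for WT and 2.0 RPM without Cxxc1. Their ratio of 0.885 (0.792 to 1.00) overlapped in its interval with the 0.794 (0.769 to 0.826) of members at an island.

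Head-to-head gene pairs, with divergent start sites under 1000 bp apart, were more frequent among the members than among the other narrow WT promoter peaks. Such a pair was present at 92 members, 15.2% (12.5 to 18.2), and at 9.37% (8.61 to 10.2) of the other narrow WT promoter peaks. It was present at 9.83% of the peaks listed in Cxxc1-deficient cells alone and at 9.60% of all genes. The last share counts genes, each with 1600 bp around its first TSS, so both genes of a pair can count. The other shares count peaks, so the share of all genes is not a like baseline. Read the other way, 15.7% (13.0 to 18.8) of the 587 WT peaks at a pair were marked in both genotypes, and 9.71% (8.94 to 10.5) of the 5303 others. In the classes of WT strength the share marked in both was 9.89% at pairs and 7.96% elsewhere under 2 RPM, 13.8% and 8.79% at 2 to under 3 RPM, 19.8% and 11.3% at 3 to under 4 RPM, and 20% and 18.3% at 4 RPM and above. The intervals were apart in the classes of 2 to under 3 and 3 to under 4 RPM and overlapped in the other 2. By width the share was 11.7% at pairs and 9.48% elsewhere under 1200 bp, 13.3% and 8.74% at 1200 to 1400 bp, 20.1% and 9.49% at 1600 to 1800 bp, and 17.2% and 11.1% at 2000 to 2800 bp. These intervals were apart at 1600 to 1800 bp and overlapped in the other 3 classes. A peak at a pair can meet the promoter rule at either gene, and the same holds for the peaks it is compared with.

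Among the pairs were genes of many kinds. Ranbp1, a regulator of nuclear transport, and Trmt2a, a tRNA methyltransferase, start 151 bp apart and had 54 tags in WT and 38 in Cxxc1-deficient cells. Lnx2, a ubiquitin ligase, and Polr1d, a subunit of RNA polymerases I and III, had 46 and 38. Nit1 and the prefoldin subunit Pfdn2, 24 bp apart, had 31 and 41. Taf11, a subunit of TFIID, and Anks1 had 23 and 34. Psme2, a subunit of the proteasome activator, and Rnf31, part of the linear ubiquitin ligase, had 35 and 33. They are among the pairs highest in Cxxc1-deficient RPM and were named after their values were seen. The median separation was 189 bp, and at 70 of 92 members the start sites lay at most 300 bp apart. Members at a pair had medians of 3.0 RPM with Cxxc1 and 2.25 RPM without it, and the other members had 2.50 and 2.10 RPM. There were fewer tags in Cxxc1-deficient cells at 77.2% of members at pairs (67.6 to 84.6) and at 65.6% of the others (61.4 to 69.6).

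**Figure D4:**
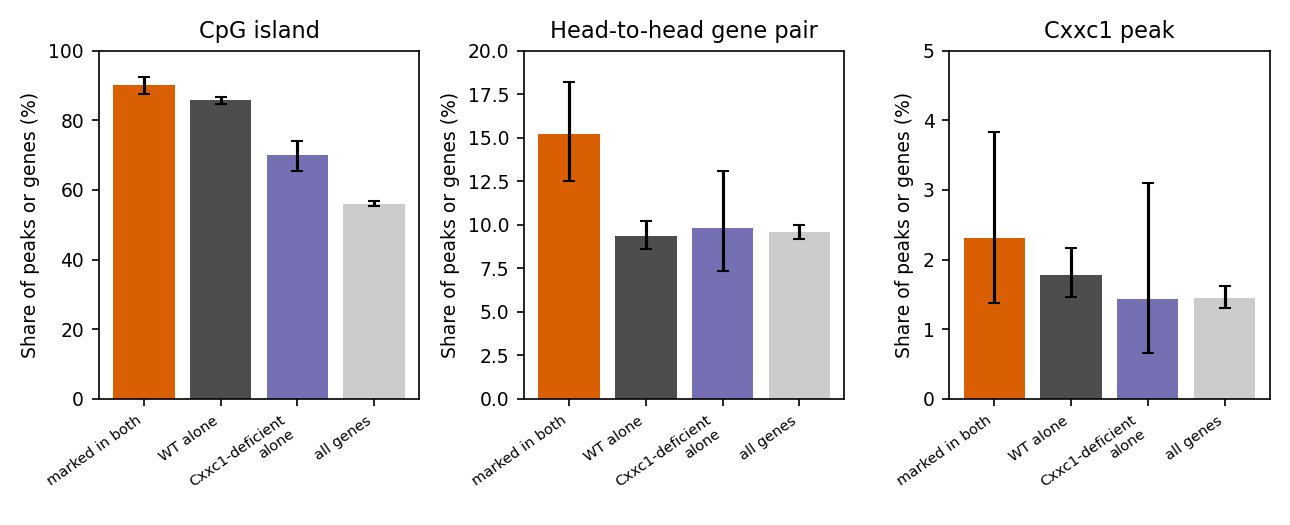
Shares in percent with a CpG island, a head-to-head gene pair or a Cxxc1 peak, for 607 peaks marked in both genotypes, 5283 narrow promoter peaks marked in WT alone, 417 marked in Cxxc1-deficient cells alone and 21410 genes. Error bars are 95% Wilson intervals, and the vertical scales differ. The last group counts genes, each with 1600 bp around its first TSS, so both genes of a pair can count, and the others count peaks. Head-to-head pairs reach 15.2% in the first group and 9.37% to 9.83% in the others.

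Of 12 short motifs searched in the 300 bases from 250 before to 50 after the TSS, on both strands, none separated the members from the other WT peaks beyond the intervals. The GC box GGGCGG was present in 71.2% of members (67.4 to 74.6), 69.3% of the other WT peaks (68.0 to 70.5) and 44.3% of all promoters. The CCAAT box was present in 39.9% (36 to 43.8), 35.4% (34.1 to 36.7) and 37.6%. The Ets motif CCGGAAG was present in 18.3%, 16.3% and 11.1%, and the NRF1 motif GCGCATGCG in 4.61%, 3.12% and 2.16%. The TATA box TATAAA was present in 4.28%, 5.07% and 13.5%, and the Runx motif TGTGGT in 10.9%, 10.7% and 15.2%. A match is a description of the letters and not of binding.

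A Cxxc1 peak lay on few of these promoters. Cxxc1 ChIP-seq was listed for 1 library, which the study's methods assign to WT and whose file names no genotype. It overlapped 14 members, 2.31% (1.38 to 3.83), beside 1.78% (1.46 to 2.17) of the other narrow WT promoter peaks and 1.45% of all genes. The difference was not detectable with 14 members. Of the 108 narrow WT promoter peaks with a Cxxc1 peak, 13.0% (7.88 to 20.6) were marked in both genotypes, and of the 5782 without, 10.3% (9.50 to 11.1).

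The strongest Cxxc1 peaks at members were at Mpzl1, Lnx2 and Brwd1. At Mpzl1, a cell-surface glycoprotein gene, the Cxxc1 peak held 37 tags (3.9 RPM), and H3K4me3 was 18 tags in WT and 22 in Cxxc1-deficient cells. At Lnx2 the Cxxc1 peak held 36 tags but shared only 200 bp with the H3K4me3 peak. At Brwd1, a bromodomain protein gene, Cxxc1 had 32 tags, and H3K4me3 was 38 and 28 tags. Plec, Dcun1d1, Pxmp4, Cdk4, Pvr, Ttll12 and Pskh1 followed with 26 to 19 Cxxc1 tags. Among these 10, the H3K4me3 ratio ranged from 0.615 (0.308 to 1.19) at the cell cycle kinase gene Cdk4, with 26 and 16 tags, to 2.28 at Pxmp4. Over all 14 the median ratio was 0.879 (0.622 to 1.21), and 8 had fewer tags in Cxxc1-deficient cells.

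The members carried 717 gene symbols, which is 11.3% of the 6324 with a narrow WT promoter peak. That is the share to set beside each gene list. Counts of list members with fewer tags in Cxxc1-deficient cells are to be set beside the 67.4% of all 607 members. Unless shared windows are named, tags are sums over whole peaks, so these counts go in part with peak width. The lists were drawn up by pathway or name, with earlier results of these data known, and the intervals below are not corrected for the number of lists.

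Genes of the T-cell receptor pathway and thymocyte development were members in 7 of 33 cases, 21.2% (10.7 to 37.8), and 4 of the 7 had fewer tags in Cxxc1-deficient cells. Cd3e, a chain of the CD3 complex, had 32 tags in both libraries. Cd8a, the coreceptor gene that the study followed, had 35 tags in WT and 21 in Cxxc1-deficient cells, a ratio of 0.60 (0.332 to 1.06). Gata3, a factor of the CD4 lineage, had 34 and 24, with 7 and 8 in its 2 shared windows. Bcl10, an adaptor between the receptor and NF-kB, had 31 and 16 tags, a ratio of 0.516 (0.264 to 0.973). Rasgrp1, the exchange factor that activates Ras in thymocytes, had 31 and 32. Zbtb7b, the CD4 lineage factor also called ThPOK, had 28 and 18. At Runx1 the member was a 1200-bp peak with 18 WT tags and 26 Cxxc1-deficient tags, while a 6000-bp WT peak at another of its promoters had no Cxxc1-deficient peak. Bcl10 was the one of the 7 whose interval excluded 1. Zap70, the kinase downstream of the receptor that the study also followed, was no member. Its 3400-bp WT peak was too wide for the rule, with 41 tags in WT and 23 in Cxxc1-deficient cells, and its narrow peak had 28 tags in WT and no Cxxc1-deficient peak.

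Other chromatin modifiers and remodellers were members in 9 of 36 cases, 25% (13.8 to 41.1). They included the DNA methyltransferase genes Dnmt3a, with 47 tags in WT and 17 in Cxxc1-deficient cells, and Dnmt3b, with 32 and 21. The histone demethylase genes Kdm2b, Kdm4a and Kdm4c had 28 and 17, 28 and 20, and 25 and 20 tags. Eed, a Polycomb subunit gene, had 26 and 20, and the deacetylase gene Hdac7 had 24 and 19. Together with Uhrf1 these 8 genes all had fewer tags in Cxxc1-deficient cells over the whole peaks, and Sin3a is described above. In the windows listed in both, Uhrf1 had 7 WT and 14 Cxxc1-deficient tags and Kdm2b 6 and 9. Dnmt3a had 17 and 15 there, Dnmt3b 17 and 15 and Kdm4a 21 and 20. Those of Kdm4c, Eed and Hdac7 are not given here. Of 15 genes of H3K4 methylation and demethylation with a narrow WT peak, 1 was a member, Wdr82, a Setd1 complex subunit gene with 21 and 19 tags.

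Chaperones were members in 12 of 49 cases, 24.5% (14.6 to 38.1). Beside Hspa2, they included Hspa9, the mitochondrial Hsp70 gene, with 37 and 25 tags, Hspa5, the Hsp70 gene of the endoplasmic reticulum, with 26 and 18, Hspa14 with 33 and 18, Dnajb11 with 35 and 28 and Hspb6 with 31 and 26. The chaperonin genes Cct2, Cct3 and Cct8 had 19 and 15, 24 and 26, and 20 and 15 tags. Fewer tags in Cxxc1-deficient cells were counted at 9 of the 12, and the median ratio was 0.770. Of all lists with at least 10 genes, chromatin modifiers and chaperones were the only ones whose interval lay above the 11.3% of all genes.

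The remaining lists lay around that background. Oxidative phosphorylation genes were members in 7 of 40 cases, 17.5% (8.75 to 31.9), among them Ndufb5 with 33 and 20 tags and Sdhb with 20 and 30. Proteasome subunits were members in 4 of 22 cases, 18.2% (7.31 to 38.5). Ribosome biogenesis and exosome genes were members in 5 of 27, 18.5%, and 1 of the 5, Exosc8 with 44 and 27 tags, had fewer tags in Cxxc1-deficient cells. Genes of RNA polymerases, general factors and Mediator were members in 5 of 41, 12.2%, with Polr1d the one member of 5 that had fewer tags. Splicing factors were members in 5 of 45, 11.1%, with U2af2, a subunit of the 3′ splice site factor, at 56 and 22 tags. Translation factors were members in 3 of 27, 11.1%, and all 3 had fewer tags, with 43 and 20 at the cap-binding protein gene Eif4e, 42 and 15 at Eif1ad and 35 and 16 at Eif3k. DNA replication and cell cycle genes were members in 8 of 54, 14.8%, and zinc finger genes named Zfp in 13 of 114, 11.4%.

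The lists that follow had shares below 11.3%, with intervals that all include it. Cytosolic ribosomal protein genes were members in 3 of 43 cases, 6.98% (2.40 to 18.6), among them Rpl38 with 41 and 20 tags and Rps19 with 35 and 30. Mitochondrial ribosomal protein genes were members in 2 of 32, 6.25%, and membrane traffic genes in 7 of 98, 7.14% (3.5 to 14.0). Of the aminoacyl tRNA synthetase genes 0 of 19 were members, with an interval that reaches 16.8%. Ubiquitin conjugation and removal genes were members in 5 of 46, 10.9%, and replication-dependent histone genes in 1 of 12, 8.33%.

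**Figure D5:**
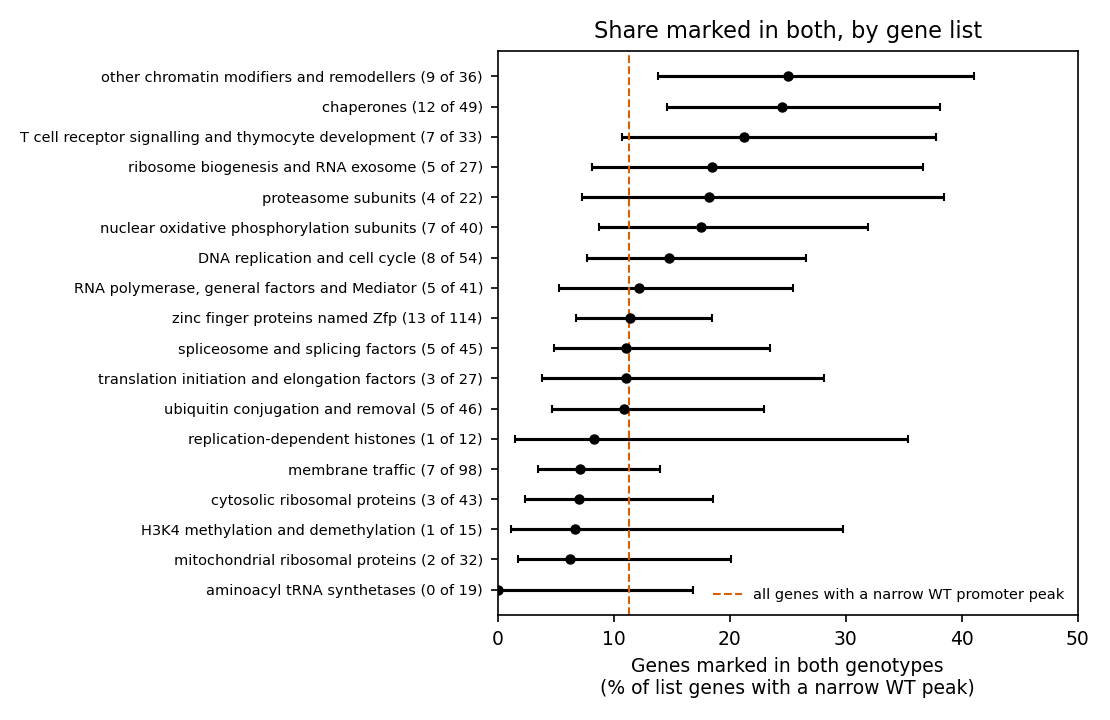
Percentage of the genes of each list with a narrow WT promoter peak that are marked in both genotypes, for lists with at least 10 such genes. Points are shares, bars 95% Wilson intervals, and the dashed line is the 11.3% of all 6324 genes. Chromatin modifiers at 25% and chaperones at 24.5% have intervals above the line.

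Shared peaks outside the definition gave a scale for these values. The 119 shared autosomal promoter peaks of 3000 bp and above, at most 10 RPM, had a WT median of 5.50 RPM and a Cxxc1-deficient median of 2.40 RPM, a ratio of 0.436 (0.388 to 0.481). Their Cxxc1-deficient level was close to the 2.10 RPM of the members. The same floor applies to both, and its part in this was not tested. The 416 shared peaks away from promoters had 2.60 and 2.20 RPM, a ratio of 0.868 (0.833 to 0.914).

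At the edges of the definition the values were continuous. The widest members measured 2800 bp, 25 of them, with Jund and Hspa2 the strongest. Just outside, at 3000 bp, were Pitpnm2 with 6.0 RPM for WT and 1.8 RPM without Cxxc1 and Pik3r2 with 5.9 and 2.1 RPM. No shared narrow promoter peak exceeded 6.0 RPM, so the limit of 10 RPM removed none, and the nearest shared promoter peaks above it, at 4930572J05Rik with 11.7 RPM and at Il4ra with 15.4 RPM, were also wider than 3000 bp. Pak2 and Insig2 were members through an overlap of 200 bp, as small as any, and 26 members overlapped by 200 bp or less. The peaks at Naca and Arid1a adjoined a Cxxc1-deficient peak without sharing a base and were not members, and 58 non-members had a Cxxc1-deficient peak within 1000 bp. The X chromosome, which the rule leaves out, held 0 shared narrow promoter peaks. Without the number of WT peaks there, this cannot be set beside the autosomal share.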

How the data were processed

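The 3 processed lists used held H3K4me3 in WT, H3K4me3 in Cxxc1-deficient cells and Cxxc1, from a series of 5 samples with 1 library per group. The input and the Cxxc1-deficient Cxxc1 ChIP were not analysed here. Per the labels and methods, reads were processed with CASAVA 1.8.2, mapped uniquely to mm9 and called with SICER 1.1, with input and Cxxc1-deficient ChIP as controls. Which of these served for the H3K4me3 lists is not given in the sources used here, and if it was the Cxxc1-deficient ChIP, WT peaks at places marked in both would be harder to call. The aligner and the handling of duplicates are not given in the sources used here, and either can alter the set of peaks. The authors deposited the 200-bp windows of called regions with RPM values at 1 decimal. Windows that are not listed have an unknown value, not 0.

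Windows were joined across at most 2 missing windows. The value of 1 tag was inferred from the decimals that occur, and tags per window are RPM divided by it, rounded. Start sites came from protein-coding entries of GENCODE vM1 on NCBIM37, the same assembly as mm9, and sequences came from that assembly. Shares carry 95% Wilson intervals, medians order-statistic intervals and tag ratios exact Clopper-Pearson intervals, with no p-values. The members and lists were chosen with earlier results of these data known. Genes named were the 6 highest in each library, the 5 lowest and 5 highest ratios whose interval excluded 1, up to 6 members per gene list, more for T-cell genes, up to 10 with the highest Cxxc1 RPM, those at the thresholds, and Cd8a and Zap70. Remaining names were added after values were seen, and not every gene under the rule is reported here. The functions were tested on simulated data. Python 3.11.15, numpy 2.4.6, pandas 2.3.3, scipy 1.17.1 and matplotlib 3.10.9 were used.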

Additional observations from a re-analysis of the deposited data

How the results depend on the processing

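Of 47 values recomputed under the alternatives for 8 results, 36 stayed within the 95% interval of the value given above and 11 moved out of it. For the number of members the limit was 1.5 times the value instead of an interval. A change of direction could be scored only for the median ratio and the share of members with fewer tags, and 0 occurred there. When 50% of the shorter peak had to be covered, 9.13% of narrow WT promoter peaks were marked in both. With no missing window bridged there were 955 members, 8.23% of the narrow WT promoter peaks, of which 79.8% lay at a CpG island and 61.5% had fewer tags in Cxxc1-deficient cells. Peaks are split into more pieces by that setting. With a width under 2000 bp the median ratio of Cxxc1-deficient to WT tags was 0.944, and 56.3% of members had fewer tags. Over the windows listed in both genotypes the median ratio was 0.857. Over the windows within 1 kb of the TSS it was 0.760, and 72.0% of members had fewer tags. Under the looser definition of a CpG island 94.9% of members had one. For the other moved values the cause was not tested. Dropping the limit of 10 RPM could change nothing, as the highest narrow WT promoter peak had 8.80 RPM. The values of that alternative are among the 36 by construction. With 1 library per genotype, about 26 tags per peak and values missing wherever a window was not listed, ratios of single members are loose. No paired analysis was possible because there is 1 library per group and no result comes from a test.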
